A study of Mus musculus with 6 samples.

Results

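The transcriptome of the normal newborn mouse lens was described from the 3 wild-type (WT) libraries of a series of 6. They were chosen by genotype label and are named A, B and C. The other 3 libraries come from Fyco1-/- lenses and were not used here, so no comparison of genotypes is made. Each WT library was made from total RNA of a separate pool of 10 lenses of C57BL/6 mice at postnatal day 0, with no allele or treatment other than WT named in the labels. The sex of the mice and the number of mice behind a pool are not given in the sources used here. The values are FPKM (fragments per kilobase of gene, scaled to the reads of the library) for 22298 gene entries. Which reads entered the scaling total is not given in the sources used here. FPKM is divided by gene length, so a share of summed FPKM is not a share of reads. It is only an approximate share of transcript molecules, because the gene lengths used are not given in the sources used here. Where the length used exceeds that of the transcript made, FPKM is too low. Comparisons between genes below are therefore comparisons of FPKM.

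The lens is a clear tissue without blood vessels of its own, wrapped in a basement membrane called the capsule. A single layer of epithelium at the front divides and feeds cells into the fibre mass, where they elongate, leave the cell cycle, fill with crystallin proteins and later destroy their nuclei and mitochondria. Alpha crystallins are small heat shock proteins that keep other proteins soluble, while beta and gamma crystallins are a related pair of families that pack densely and give the lens its refractive power. The RNA came from whole lenses, so a gene's level is an average over epithelium and fibres, and fewer cells of a type cannot be told apart from less RNA per cell.

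Summed FPKM was 741913 in A, 745376 in B and 757094 in C, and 220944, 217714 and 216653 once the crystallins were left out. FPKM is already scaled to the reads of each library, so these sums do not measure library size. The table holds no read counts; the steps between its smallest values put the depth at an estimated 17.1, 20.04 and 17.4 M reads in A, B and C, which makes 1 read in a gene of 1 kilobase worth 0.0586, 0.0499 and 0.0575 FPKM. At 1 FPKM or more in all 3 libraries, taken here as detected, there were 9973 of the 22298 entries. Among the 17372 entries labelled protein-coding in the table, 9558 were detected. Counts of detected members of a gene list stand against these shares of all entries. The entries listed at 0 in all 3 libraries numbered 1560.

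The 14 most abundant genes of the newborn lens were all crystallins, and they held the same 14 ranks in each library. The 16 alpha, beta and gamma crystallin genes together made up 70.2%, 70.8% and 71.4% of summed FPKM in A, B and C (70.8% ± 0.582, SD, n = 3 libraries, as for every mean here). The 8 gamma crystallins held the most (30.9% ± 0.336), followed by the 6 beta crystallins (23.4% ± 0.159) and the 2 alpha crystallins (16.5% ± 0.181). The ranges of the 3 families did not overlap. Within the crystallin pool the split was 43.6% gamma, 33.0% beta and 23.4% alpha, with SDs of 0.141, 0.132 and 0.203.

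The upstream sequences of the crystallins that carry most of this RNA are shown first, because 3 of the most abundant are near copies of each other and because most have a TATA-type stretch in the same place. Each window runs from 60 bases before to 20 bases after the RefSeq transcription start (GRCm38.p6), 5′ to 3′ on the strand of the gene, with a TATAAA or TATATA match 40 to 15 bases before the start in capitals.
Cryaa (chr17:31677871-31677950, plus strand): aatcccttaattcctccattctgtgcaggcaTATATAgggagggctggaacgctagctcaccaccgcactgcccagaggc
Crygd (chr1:65063421-65063500, minus strand): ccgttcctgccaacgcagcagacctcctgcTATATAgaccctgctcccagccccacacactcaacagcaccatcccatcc
Cryge (chr1:65051144-65051223, minus strand): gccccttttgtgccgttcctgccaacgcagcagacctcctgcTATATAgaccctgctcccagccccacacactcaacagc
Crygf (chr1:65926462-65926541, plus strand): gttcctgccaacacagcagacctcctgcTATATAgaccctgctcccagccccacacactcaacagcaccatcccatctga
Crygb (chr1:65082271-65082350, minus strand): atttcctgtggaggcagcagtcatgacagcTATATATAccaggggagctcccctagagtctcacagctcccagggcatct
Crybb1 (chr5:112255760-112255839, plus strand): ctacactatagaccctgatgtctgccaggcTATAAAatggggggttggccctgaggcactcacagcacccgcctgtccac
Cryba1 (chr11:77725274-77725353, minus strand): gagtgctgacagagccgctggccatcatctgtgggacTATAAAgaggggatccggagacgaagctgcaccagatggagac
Crybb2 (chr5:113070098-113070177, minus strand): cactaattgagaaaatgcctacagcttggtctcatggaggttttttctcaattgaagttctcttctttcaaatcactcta

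RefSeq gave a window for 15 of the 16 crystallins, all except Cryab. TATAAA or TATATA lay 40 to 15 bases before the start, on the strand of the gene, in 11 of the 15 windows (73.3%), against 2.91% of all 32851 promoters and 8.86% of the 79 promoters matched to 66 of the 100 most abundant genes that are not crystallins. Anywhere in the 300 bases (250 before the start and 50 after it) and on either strand, a match to these 2 overlapping motifs was found in 80.0% of the crystallin windows, 17.1% of all promoters and 21.5% of those of the abundant other genes. In Crybb2, Crybb3, Cryba2 and Cryba4 these letters were not found between 40 and 15 bases before the annotated start. In Cryba2 a match begins 3 bases before the annotated start. Only exact matches to these 2 motifs were searched, so variants of them would be missed. Crybb2 is the lowest of the 6 beta crystallins, but Crybb3 ranked 8th among all genes, so a match and a high level did not always go together. Several of the genes share a source of sequence: Crygd and Cryge have an identical run of 78 bases, Crygd and Crygf of 64 and Cryge and Crygf of 55, and 4 of 105 pairs of crystallin windows share a run of 20 bases or more. The run sits 12 bases nearer to the annotated start in Cryge than in Crygd. These matches describe letters in the sequence and show neither binding nor use of the motif.

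Cryaa, which encodes alpha A crystallin, the chaperone subunit largely restricted to the lens, was the most abundant transcript. It measured 114828, 114749 and 119181 FPKM in A, B and C, or 15.5% ± 0.181 of all FPKM. Its partner Cryab, which encodes alpha B crystallin and is also made in muscle and other tissues, measured 7670, 7310 and 7512 FPKM and ranked 12th. Cryaa was thus 15.5 ± 0.475 times as abundant as Cryab, and 93.4 ± 1.17 times as abundant as Gapdh. The exons of Cryaa (GRCm38 chromosome 17, 31677807 to 31681733) overlap those of a gene on the other strand by 273 bases and those of Cryab (chromosome 9, 50751325 to 50756636) overlap Hspb2 by 252 bases, and whether the authors' counting used strand is not given in the sources used here.

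The gamma crystallins were led by Crygd at 68408, 68963 and 70560 FPKM, the second most abundant gene of the lens. Cryge followed at 45834, 47137 and 49722 FPKM, Crygb at 41565, 42236 and 42835, Crygf at 35782, 36680 and 37061, and Crygc at 22126, 23191 and 23449 FPKM. The ranges of these 5 genes did not overlap. Crygs, whose protein is known to accumulate later in life, was lower at 6223 ± 181 FPKM. Crygn, a family member between the beta and gamma types, measured 4936 ± 30.9 FPKM. Cryga was the lowest crystallin of all at 1499, 1437 and 1643 FPKM, so that Crygd exceeded it by 45.5 ± 2.52 times. Of the 730 exon bases of Cryga, 350 are shared with an overlapping gene model on the same strand (Gm28845), so its own level is uncertain. The longest transcripts of Crygd, Cryge and Crygf are near-identical (99.2% over 245 bases for Crygd and Cryge, 97.9% over 290 for Crygd and Crygf, 96.1% over 585 for Cryge and Crygf), so reads that fit more than 1 of them may have been split or dropped, and the order among these 3 is uncertain.

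Among the beta crystallins Crybb1 was highest at 56794, 58437 and 58564 FPKM. Cryba1, the gene of the beta A3 and A1 proteins, came next at 47819, 47553 and 49936 FPKM, then Crybb3 at 33523 ± 454, Cryba4 at 18694 ± 395 and Cryba2 at 14280 ± 72.4 FPKM. Cryba2 had the smallest relative spread of any crystallin, with a coefficient of variation (CV, SD over mean) of 0.507%. Crybb2, whose protein becomes a major component of the adult lens, stood far below them at 1781, 2013 and 1826 FPKM. Crybb1 exceeded Crybb2 by 31.0 ± 1.71 times. In the order of the 30 most abundant genes, 19 of 29 neighbouring pairs had ranges that did not overlap. Within the top 14 the one pair that did overlap was Cryba1 and Cryge.

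**Figure D1:**
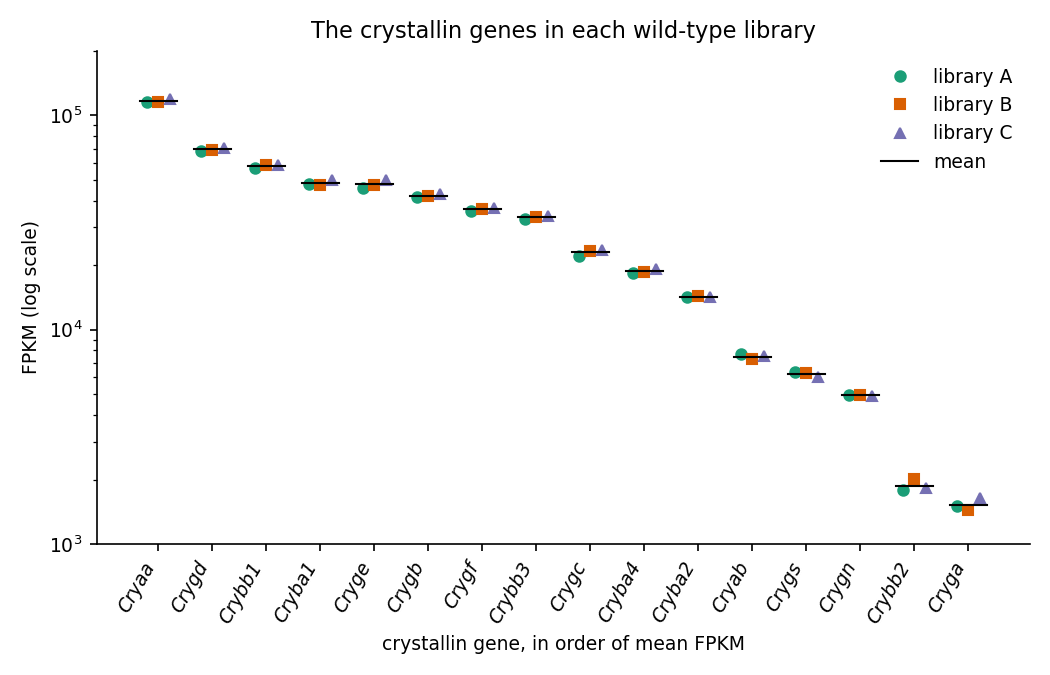
FPKM of the 16 crystallin genes (vertical axis, log scale) in each WT library (points) with the mean of the 3 (lines), in order of the mean. The 3 libraries lie close together for each gene, from Cryaa near 116253 FPKM to Cryga near 1526 FPKM, with a step down between Crygn (4936) and Crybb2 (1873).

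By genome position, 7 crystallin genes lie on chromosome 1 in GENCODE M21. They are Cryga, Crygb, Crygc, Crygd and Cryge side by side between 65048554 and 65103373, with Crygf at 65926520 and Cryba2 at 74889934. These 7 held 44.2% ± 0.172 of crystallin FPKM. The 5 on chromosome 5 (Crybb1, Crybb2, Crybb3, Cryba4 and Crygn) held 22.1% ± 0.222. Within the chromosome 1 row of 5 genes the means ran from 1526 FPKM (Cryga) to 69310 (Crygd), and on chromosome 5 Crybb2 (1873 FPKM) and Crybb3 (33523) lie beside each other. Neighbouring crystallin genes thus differed widely in level.

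Expression was concentrated in very few genes. The first 5 genes held 45.4% ± 0.518 of summed FPKM, 6 genes held 50% and 887 held 90%. Without the crystallins the curve was much flatter: the most abundant gene held 1.47% ± 0.0606 of what remained, the first 10 held 9.38% ± 0.209, 297 genes held 50% and 4403 held 90%. Above 10000 FPKM there were 11 genes in all 3 libraries, all of them crystallins, above 1000 FPKM there were 30 and above 100 FPKM 311. When FPKM was multiplied by exon length to approximate shares of reads, crystallins together made up 47.3% ± 0.88. The share of Cryaa did not fall, at 16.7% ± 0.367 against 15.5% ± 0.181 of summed FPKM.

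**Figure D2:**
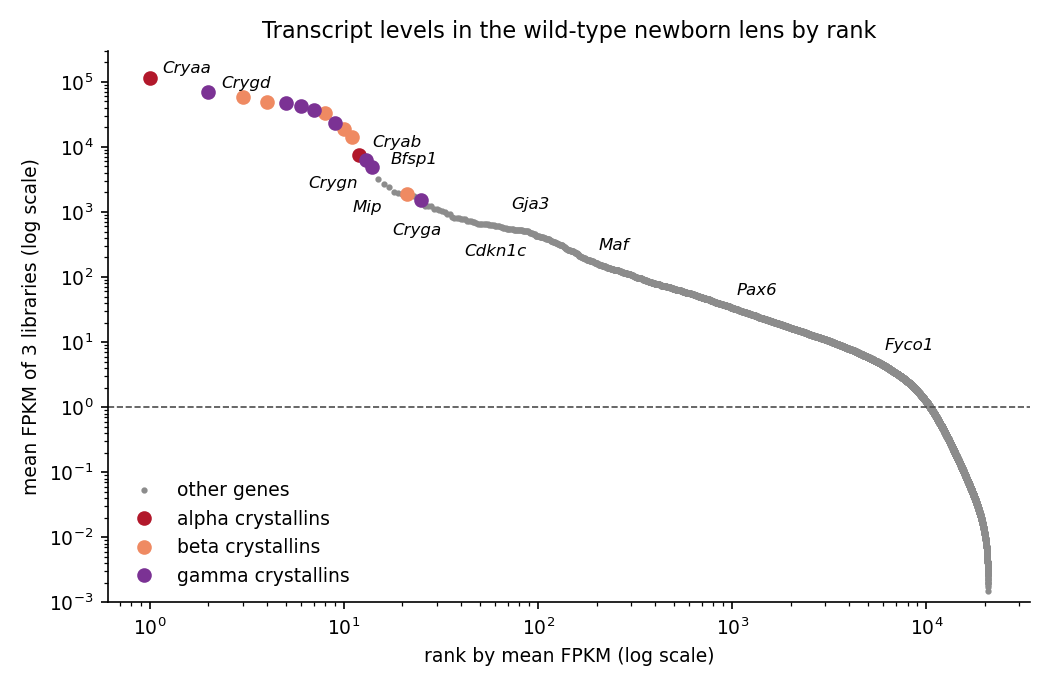
Mean FPKM over the 3 WT libraries (vertical axis, log scale) against rank among 22298 entries (horizontal axis, log scale), with the crystallin families in colour and 1 FPKM as a dashed line. The first 14 ranks are crystallins, and the curve drops from 116253 FPKM at Cryaa to 3201 at Bfsp1, the first gene of another kind.

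Outside the crystallins the highest gene was Bfsp1, which encodes filensin, a subunit of the beaded filament that is typical of lens fibres. It measured 3117, 3333 and 3152 FPKM (rank 15). Bfsp2, the gene of the partner subunit phakinin, measured 1688, 1757 and 1764 FPKM, and Bfsp1 exceeded it by 1.84 ± 0.0552 times. Vim, the gene of vimentin, which epithelium and young fibres share with many cell types, measured 545 ± 16.8 FPKM. Of the 12 intermediate filament genes on the list, 9 were detected. The epithelial keratin genes Krt8 (at most 0.454 FPKM) and Krt18 (at most 0.794) were not, and Des, the muscle filament gene, was at 1 FPKM or more in B alone (0.406, 1.63 and 0.379 FPKM).

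The membrane genes of lens fibres came next. Mip, which encodes aquaporin 0, the main membrane protein of fibres, measured 1958, 1888 and 1923 FPKM (rank 19), with 1223 exon bases that overlap a gene on the opposite strand. Aqp1, the water channel of the epithelium, measured 4.27, 2.94 and 3.54 FPKM. Gja3, which encodes the fibre gap junction protein connexin 46, measured 581, 574 and 563 FPKM. Gja1 (connexin 43), the connexin typical of epithelium, measured 13.7, 11.9 and 10.5 FPKM, so the ranges of these 2 genes did not overlap. The amino acid transporter genes Slc7a5 (205 ± 4.4 FPKM) and Slc3a2 (111 ± 3.34), whose products pair in the membrane, and the glucose transporter gene Slc2a1 (149 ± 11.2) were also among the highest of the list. In all, 19 of the 26 entries of this list were detected. The fibre membrane gene Lim2 is known as a major component of lens membranes, yet the table lists its symbol for 2 entries, at 3.30, 2.67 and 2.87 FPKM and at 0, 0.150 and 0 FPKM. Which gene model each entry stands for is not given in the sources used here, so its level is uncertain.

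Other genes known for roles in fibres were also high. Grifin, which encodes a galectin-related lens protein, measured 606, 601 and 596 FPKM, and Capn3, the gene of the protease calpain 3, 455, 465 and 469 FPKM. Fabp5, a fatty acid carrier gene, measured 381 ± 12.1 FPKM, Lctl, a gene of the klotho family, 121 ± 2.71, and Dnase2b, whose nuclease degrades the DNA of fibre nuclei, 43.3, 41.4 and 39.7 FPKM. Of this list's 15 measured genes 13 were detected, the exceptions being Gcnt2 (0.255, 0.320 and 0.289 FPKM) and Lenep (0.162, 0.0827 and 0.286 FPKM). Exons of Gcnt2 overlap those of another gene by 482 bases on the opposite strand. The longest transcript of Lenep is identical to that of Flad1 over 1309 of its 1806 bases. Reads there may have been split or dropped, so the level of Lenep is uncertain. The RNA-binding genes linked to fibre differentiation were well expressed: Tdrd7, a component of RNA granules, measured 426, 441 and 430 FPKM, Caprin2 339 ± 7.86, Carhsp1 262 ± 2.92 and Rbm24 129 ± 3.30 FPKM. All 18 RNA-binding genes of the list were detected.

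Against 9558 of all 17372 protein-coding entries, 24 of the 24 genes measured for adhesion and the membrane skeleton were detected. The spectrin gene Sptan1 was highest at 164 ± 4.74 FPKM, and the spectrin genes Sptbn1 and Sptb measured 129 ± 5.30 and 77.0 ± 2.19 FPKM. Ezr, which encodes the membrane linker ezrin, measured 153 ± 3.01 FPKM and Ctnnb1, the gene of beta catenin, 152 ± 4.08. The neural cadherin gene Cdh2, used by fibres, measured 74.7, 70.3 and 70.2 FPKM, while the epithelial cadherin gene Cdh1 measured 22.1, 21.9 and 19.3 FPKM. Tuba1a, a tubulin gene, was the highest of the cytoskeletal list at 724 ± 25.0 FPKM, above the actin genes Actb (408 ± 23.0) and Actg1 (270 ± 16.9). Of the 1803 exon bases of Tuba1a, 473 are shared with an overlapping gene model on the same strand (Gm49450). The longest transcript of Tuba1a is 98.3% identical to that of Tuba1b over 1357 bases, so its own level is uncertain.

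The transcription factor genes of the lens lay far below the crystallins. Of the factors that drive fibre differentiation, Maf (c-Maf, a direct regulator of crystallin genes) was highest at 180, 184 and 186 FPKM. Hsf4, a heat shock factor active in lens fibres, measured 145 ± 1.62 FPKM, Prox1, a homeobox gene needed for fibre elongation, 88.0 ± 0.951, Sox1, an activator of gamma crystallin genes, 59.9 ± 2.16 and Mafg 49.0 ± 2.03. The list had 14 of 15 genes detected, Sall4 being the exception. Of the factors of early lens and epithelium, Foxe3, which maintains the epithelium, measured 145, 144 and 111 FPKM, the value in C lying below those in A and B. Pitx3, a homeobox gene of the lens, measured 85.3 ± 2.47 FPKM, Pax6, the master regulator of eye development, 36.5 ± 1.62 and Six3 23.3 ± 1.93. Maf was 5.03 ± 0.293 times as abundant as Pax6. Six6, Otx2, Tfap2b, Eya2 and Mab21l2 were not detected, leaving 16 of 21.

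Against 9558 of all 17372 protein-coding entries, genes of the epithelium were detected in 18 of 19 cases. The highest was Dkk3, which encodes a secreted protein of the Dickkopf family, at 560, 559 and 539 FPKM, followed by the Wnt antagonist gene Sfrp1 at 285 ± 3.94. Fgfr3, the highest of the FGF receptor genes, measured 118 ± 2.45 FPKM, against 20.4 ± 1.32 for Fgfr2 and 17.1 ± 2.07 for Fgfr1. Fgf2 was listed at 0 in all 3 libraries. Its longest transcript is identical to that of Gm43439 over 255 of 5973 bases, and how shared reads were treated is not given in the sources used here. Whether the 0 means absence of the transcript was not tested. Jag1, the Notch ligand gene of young fibres, measured 67.6 ± 2.35 FPKM. Genes of the capsule were led by Sparc, which encodes a matrix chaperone of collagen, at 518 ± 13.6 FPKM, and by the type IV collagen genes Col4a1 (380, 381 and 340 FPKM) and Col4a2 (308, 316 and 277 FPKM). Nid1 (nidogen 1) measured 235 ± 13.8 and Hspg2 (perlecan) 110 ± 7.97 FPKM. Col4a1 exceeded Col4a2 by 1.22 ± 0.0159 times and Col4a3 by 58.7 ± 5.58 times. Of the 25 capsule genes 22 were detected.

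The cell cycle was represented mainly by its inhibitor. Cdkn1c, which encodes p57, the cyclin-dependent kinase inhibitor of fibres leaving the cycle, measured 588, 590 and 593 FPKM (rank 65), with a CV of 0.370%. It exceeded Cdkn1b (p27) by 61.0 ± 2.66 times and Ccnd2, the highest gene of the proliferation list, by 20.4 ± 1.41 times. The 26 genes for proliferation summed to 162, 164 and 143 FPKM, and 24 of them were detected. Mki67 measured 3.64, 3.11 and 2.30 FPKM and Top2a 5.37, 5.57 and 3.61. Cdkn1c is also the highest of the imprinted genes listed, followed by the noncoding H19 (186, 196 and 197 FPKM), whereas the neighbouring growth factor gene Igf2 measured 34.7 ± 0.502 FPKM. Of the 5723 exon bases of Igf2, 3596 are shared with an overlapping gene model on the same strand (Gm49394), so its own level is uncertain.

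Ribosomal protein genes formed the largest group after the crystallins. The 84 genes of both subunits held 16.6%, 16.4% and 17.3% of FPKM without crystallins (16.7% ± 0.473), or 4.89% ± 0.0959 of all FPKM, and 18 of the 40 most abundant genes that are not crystallins are ribosomal. Rpl41 (1239 ± 27.5 FPKM), Rps26 (1097 ± 18.4) and Rplp1 (1095 ± 23.5) were highest. The elongation factor gene Eef1a1 measured 2455, 2289 and 2393 FPKM (rank 17). Of the 30 most abundant genes, crystallins included, 13 have a near-identical partner in the annotation, which can be a related gene, a further gene model or a copy elsewhere in the genome. Their levels depend on how shared reads were treated.

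Energy genes came next. The 13 mitochondrially encoded genes held 4.40% ± 0.277 of FPKM without crystallins, and the 81 nuclear genes for oxidative phosphorylation 3.32% ± 0.0741. Of these, 7 mitochondrial genes carried 98.8% ± 0.0590 of the mitochondrial sum. They were led by mt-Co1, a subunit of cytochrome oxidase, at 2775, 2575 and 2646 FPKM, and mt-Cytb at 2216, 1922 and 2011 FPKM. By contrast mt-Co2, another subunit of the same enzyme, measured 25.7, 18.8 and 17.7 FPKM, and mt-Co1 exceeded it by 132 ± 21.2 times. mt-Co3, mt-Atp6, mt-Nd3 and mt-Nd4l were also low, at 12.3, 13.6, 61.3 and 3.14 FPKM on average, and mt-Atp8 was listed at 0. Each of mt-Co2, mt-Co3, mt-Atp6, mt-Nd3 and mt-Nd4l has a nuclear copy at least 99.7% identical over almost its whole length (681, 783, 678, 345 and 294 aligned bases). These copies lie side by side on chromosome 1 between 24612407 and 24615565. Abundant genes have copies too. The copy of mt-Nd4 on chromosome 1 is identical over 876 of its 1378 bases, and that of mt-Co1 covers 483 of 1545 bases at 99.8%. A further copy of mt-Co1 on chromosome 2 covers all 1545 bases at 97.6%. Copies of mt-Nd2 and mt-Nd5 cover 510 of 1038 and 954 of 1824 bases at 96.7% and 95.2%. The part of these copies in the levels was not tested. Among the glycolytic genes Gapdh measured 1245 ± 16.01 FPKM, Pkm 572 ± 16.4, Eno1 472 ± 3.36 and Aldoa 273 ± 6.94.

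Protective and clearance genes were broadly detected. Ftl1, the ferritin light chain gene, measured 1217 ± 11.1 FPKM and Fth1, the heavy chain gene, 348 ± 6.24. Gstp1, a glutathione transferase gene, measured 550 ± 8.90 FPKM, Gpx1, a glutathione peroxidase gene, 322 ± 1.3, and Hmox1, which encodes the haem-degrading enzyme, 237 ± 6.67. The chaperone genes Hsp90ab1 and Hspa8 measured 796 ± 27.3 and 307 ± 4.47 FPKM. All 32 autophagy genes of the list were detected, against 9558 of all 17372 protein-coding entries. Gabarapl1 (105 ± 0.273 FPKM) and the mitophagy receptor gene Bnip3l (90.6 ± 1.58), which acts in fibre organelle loss, stood at the top of the list. Fyco1, the gene disrupted in the libraries left out here, encodes an autophagosome transport adaptor and measured 5.40, 5.21 and 5.11 FPKM, near the low end of that list. The lysosomal protease gene Ctsd measured 206 ± 5.24 FPKM. Of the 2351 exon bases of Ctsd, 808 are shared with an overlapping gene model on the same strand (Gm49369), so its own level is uncertain.

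**Figure D3:**
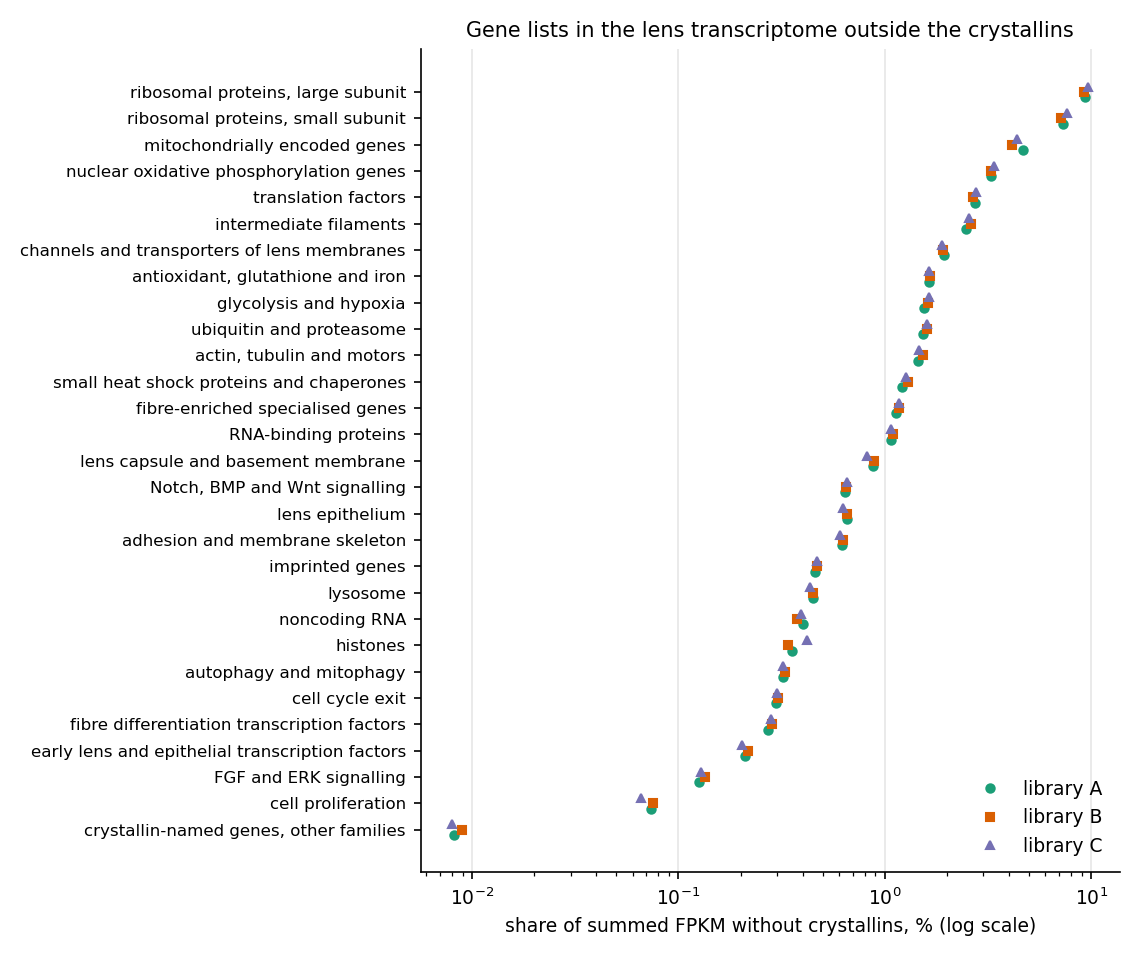
Share of summed FPKM without crystallins (horizontal axis, %, log scale) for 29 gene lists in each WT library (points). Ribosomal proteins of the large (9.39%) and small (7.35%) subunit lie highest and genes for proliferation (0.0716%) near the bottom, and the libraries differ visibly for mitochondrially encoded genes and histones.

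Some abundant genes fit none of these groups. Cd24a, which encodes a small surface glycoprotein, measured 1914, 1885 and 1920 FPKM (rank 20). Yam1, a long noncoding RNA gene, measured 1996, 1544 and 1651 FPKM (rank 23), with a CV of 13.7%, the widest among the 30 most abundant genes. Mgarp, a mitochondrial protein gene, measured 706 ± 7.80 FPKM (rank 46). Of genes chosen after their values were seen, Igfbp7 (477 ± 14.8 FPKM), Aldh1a1, a retinaldehyde dehydrogenase gene (400 ± 11.7), Gje1, a connexin gene (254 ± 8.90), Crim1 (230 ± 10.1) and Clu, which encodes the secreted chaperone clusterin (182 ± 0.772), also stood among the 181 most abundant.

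Nearly all genes on a list of human cataract genes were expressed. The table holds 45 of the 46 symbols as 46 entries, of which 43 were detected, against 9973 of all 22298 entries. Together the cataract genes held 60.3% ± 0.330 of summed FPKM, almost all of it from the crystallins on the list. Without crystallins they still held 5.45% ± 0.0869 of the rest. Those outside the crystallins ran from Bfsp1 (3201 FPKM), Mip (1923) and Bfsp2 (1736) through Chmp4b (77.5), Jam3 (47.9), Epha2 (23.4) and Galk1 (20.1) to Fyco1 (5.24) and Agk (1.84). Gcnt2, Unc45b (0.108 FPKM) and the second Lim2 entry lay below 1 FPKM.

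The markers matched the labelled tissue. Cryaa, Crygd, Crybb1, Bfsp1 and Mip were all among the 19 most abundant genes. Markers of retina and neurons summed to 2.47, 3.35 and 3.01 FPKM in A, B and C over 15 measured genes, none of them detected, with the photoreceptor genes Nrl and Crx at most 0.0787 FPKM. The 7 markers of pigmented cells summed to 1.44, 1.09 and 1.45 FPKM and the 5 of cornea and keratinised epithelium to 2.21, 0.741 and 1.16. Endothelial markers were detected in 8 of 9 cases, with sums of 49.7, 37.4 and 36.8 FPKM, and pericyte and smooth muscle markers in 4 of 7, with sums of 37.1, 27.2 and 26.7. All of the detected members of these 2 lists were highest in A, as were 43.0% of all 9973 detected genes. With the median-of-ratios scaling A was highest for all 8 endothelial genes, for 2 of the 4 others and for 3084 of the 9973. Mesenchyme markers summed to 3.64 to 5.79 FPKM.

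**Figure D4:**
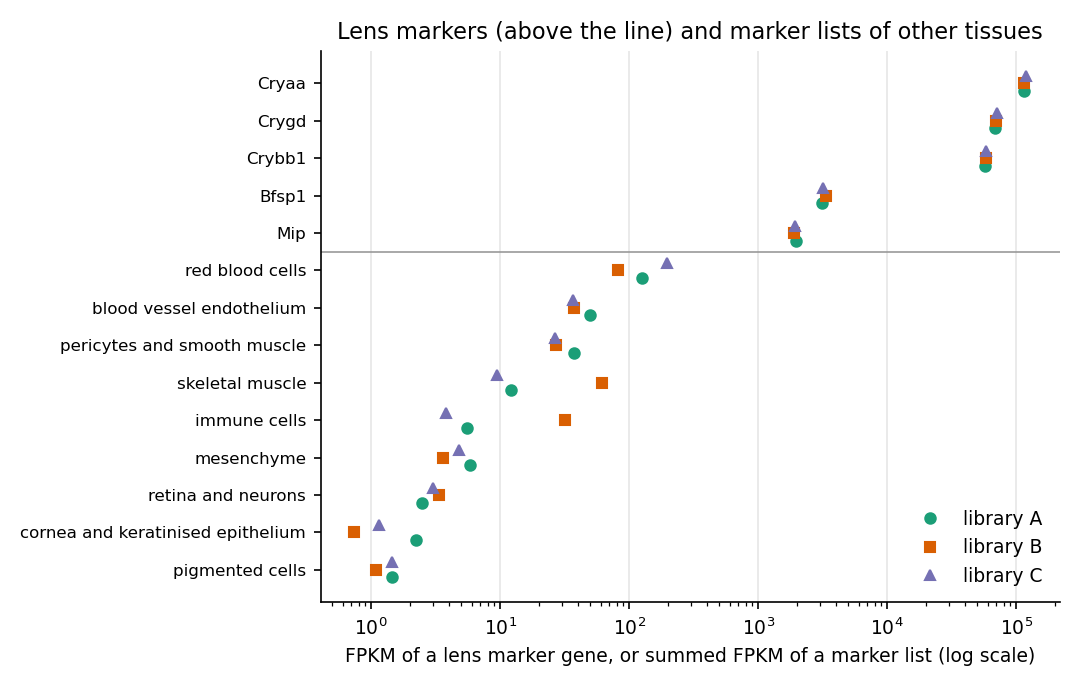
FPKM of the 5 lens marker genes (above the line) and summed FPKM of 9 marker lists of other tissues (below it) in each WT library, on a log scale. The lens markers lie between 1888 and 119181 FPKM, and the list sums between 0.741 and 195 FPKM, with B apart from A and C for skeletal muscle and immune cells.

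The 3 libraries measured nearly the same transcriptome. Across 10450 genes with a mean of at least 1 FPKM, which are not independent replicates, log2(FPKM + 0.5) correlated at 0.991 for each pair of libraries, and 97 genes stood among the 100 most abundant of all 3. The median CV was 9.37% for 7180 genes of 1 to 10 FPKM, 4.76% for 2951 genes of 10 to 100, 2.92% for 287 genes of 100 to 1000 and 2.32% for the 32 above. The counting error estimated from the depth was 5.78%, 2.57%, 1.01% and 0.327% at the same levels. The libraries are separate pools of lenses, and the depth behind the counting error is itself an estimate. Ipo5, which encodes an importin, had the smallest CV (0.00923%, 195 FPKM in each library), followed by Cnn3, Rpl34, Ube2d3 and Psmb1 (0.126% to 0.232%). With 3 libraries a CV is itself imprecise. Of the reference genes often used to normalise, Gapdh (CV 1.29%), Rplp0 (1.72%) and Ppia (1.76%) were the steadiest of those above 30 FPKM, while B2m measured 13.3, 8.57 and 7.54 FPKM (CV 31.1%).

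**Figure D5:**
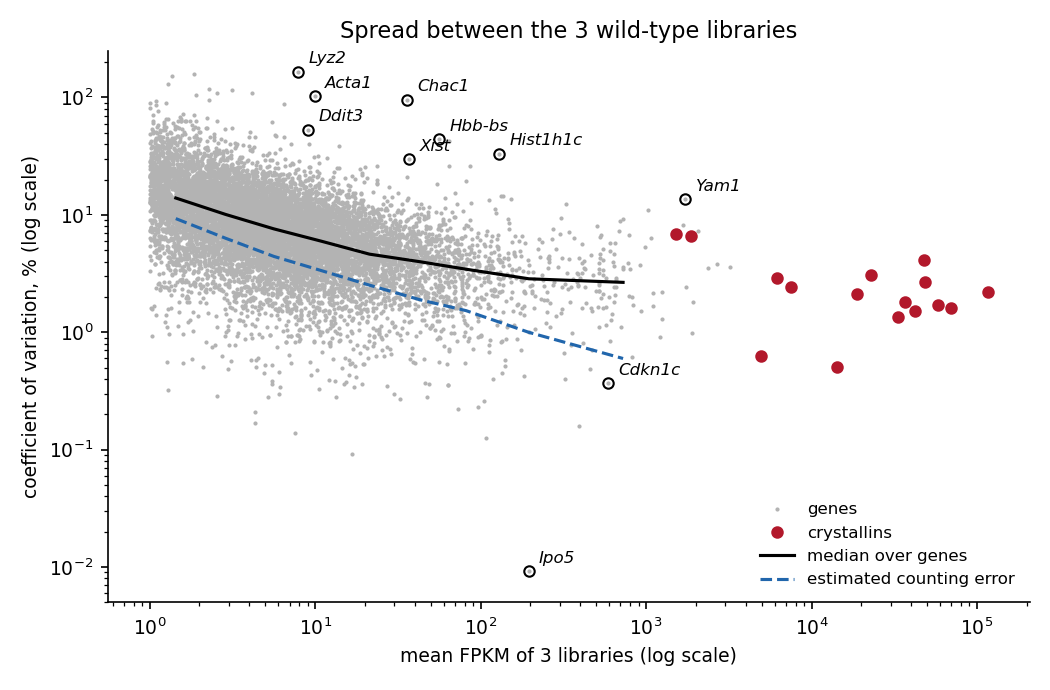
Coefficient of variation over the 3 WT libraries (vertical axis, %, log scale) against mean FPKM (horizontal axis, log scale) for genes of at least 1 FPKM, with the median over genes (black line) and the estimated counting error (blue dashes). The median falls from 9.37% at 1 to 10 FPKM to 2.92% at 100 to 1000 FPKM, and Lyz2, Acta1 and Chac1 stand far above it.

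Of 3270 genes with a mean of at least 10 FPKM, 22 differed by 1.5-fold or more between their highest and lowest library, 6 with the highest value in A, 7 in B and 9 in C. The haemoglobin genes Hbb-bs (52.0, 33.9 and 83.3 FPKM) and Hba-a1 (61.3, 38.0 and 92.7) were highest in C and lowest in B, and the red cell list as a whole summed to 126, 81.4 and 195 FPKM. Of 27 detected histone genes 14 were highest in C and 7 lowest there, against 19.2% and 51.5% of all 9973 detected genes. Hist1h1c, a linker histone gene, measured 113, 97.5 and 179 FPKM and H3f3b, a replacement histone gene, 79.7, 67.8 and 111. The differentiation inhibitor genes Id1 (65.1, 61.9 and 82.0 FPKM) and Id2 (151, 133 and 175) followed the same order of libraries, while Id3 was lowest in C (24.8, 25.0 and 20.5). Among genes of lower level, chosen after their values were seen, Chac1, a glutathione-degrading enzyme gene induced by cell stress, measured 18.3, 13.7 and 75.3 FPKM. Ddit3 (5.61, 7.09 and 14.6) and Trib3 (1.47, 1.08 and 2.95), further genes of that response, were also highest in C. The values of Hist1h1c, H3f3b, Id1, Id2, Chac1 and Trib3 as deposited stood in the same order of libraries as the red cell list, whereas Ddit3 was lowest in A. The part of red cells in these values was not tested.

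Library B had the highest sums of the muscle and immune marker lists. The 8 skeletal muscle genes summed to 12.1, 61.5 and 9.47 FPKM, led by Acta1 (4.61, 21.7 and 3.49) and Mylpf (3.59, 13.1 and 2.85). All 3 detected members were highest in B, as were 37.8% of all 9973 detected genes. The 9 immune genes, none of them detected, summed to 5.56, 31.96 and 3.83 FPKM, but 1 gene made most of the sum in B. Lyz2, the lysozyme of macrophages and granulocytes, measured 0.554, 23.1 and 0.0907 FPKM. Its longest transcript is 95.8% identical to that of Lyz1 over 1264 of 1316 bases, so its level is uncertain. The leukocyte gene Ptprc stayed at 0.0564, 0.0768 and 0.0775 FPKM. Apoe, chosen after its values were seen, measured 8.19, 14.3 and 8.82 FPKM. Even in B the muscle list made up 0.00825% of summed FPKM and the immune list 0.00429%.

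Library A, highest for 43.0% of the 9973 detected genes, had the highest value of all 12 detected mitochondrial genes, which summed to 10354, 8998 and 9515 FPKM, and of Lars2 (83.4, 52.1 and 57.8 FPKM), a mitochondrial leucine tRNA synthetase gene. With libraries scaled by the median of ratios A was highest for 9 of these 12 mitochondrial genes and for 3084 of the 9973. The X-linked Xist, which marks RNA of female mice, measured 48.7, 35.4 and 26.8 FPKM, and the Y-linked Eif2s3y 3.25, 9.18 and 7.01 and Ddx3y 2.21, 4.97 and 4.84, so that A had most of the former and least of the latter. Both kinds were present in each pool. The part of the sexes in other differences between libraries was not tested.

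Library C had the lowest value for 51.5% and the highest for 19.2% of the 9973 detected genes, and the highest crystallin share. It was lowest for 21 of 24 detected genes for proliferation, 17 of 22 for the capsule and 14 of 18 for the epithelium, and highest for 29 of 48 detected ribosomal genes of the large subunit. With the median-of-ratios scaling, C was lowest for 3216 and highest for 3707 of the 9973 genes. It was then lowest for 18 of 24 proliferation genes, 14 of 22 capsule genes and 9 of 18 epithelial genes, and highest for 47 of the 48 ribosomal genes. Under that scaling the summed FPKM of the epithelial list was 1413, 1415 and 1407, so its lower level in C was not kept, while the proliferation list measured 158, 161 and 148 FPKM.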

How the data were processed

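RNA-seq libraries of WT mouse lenses were sequenced as paired reads on a HiSeq 2500. Per the labels, the authors prepared them with the NEB Next Ultra kit, aligned reads to GRCm38/mm10 with STAR 2.5 and counted them per gene with HTSeq 0.6.1. The deposited values used here are FPKM, which the authors computed from those counts. The gene annotation, gene lengths, strand setting and scaling total are not given in the sources used here. How reads that fit several genes were treated is not given either. Such reads matter for the gamma crystallins, the ribosomal genes and the mitochondrial genes.

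From the 3 WT columns, ranks, shares of summed FPKM, means, SDs and CVs were computed with Python 3.11.15, pandas 2.3.3 and numpy 2.4.6. These steps recovered known shares on simulated data. No test was run, since only 1 group is described. A pair of neighbours in the order of means counts as separate where their library ranges do not overlap. The libraries are described by the authors as biological replicates. Positions and exon lengths came from GENCODE M21, by symbol, for 93.1% of entries, which hold 99.0% of summed FPKM. Of all entries, 43 carry a symbol that occurs more than once (21 symbols), and 24 symbols look like dates. Near-identical means at least 95% over at least 100 bases (blastn 2.17.0, longest transcripts). Depth is a rough estimate: at the best depth between 12 and 26 M reads, 49.8% to 51.9% of the values worth 1 to 20 reads came out whole (tolerance 0.05; chance alone gives 10%), so no count test was run.

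Named genes are the 30 most abundant, the 40 most abundant without crystallins, up to 6 highest members of each of 45 lists, all crystallins, cataract genes, reference genes and markers of other tissues, and the 10 largest and 10 smallest CVs at a mean of at least 50 FPKM. A few genes that the rule names are not reported here. Other genes named were chosen after their values were seen. The members and lists were chosen with earlier results of these data known. No gene of RNA without a poly(A) tail on the list for it was in the table, apart from the coding gene Lars2, which stands on that list but makes a polyadenylated mRNA. Alternatives covered filters, gene types, exon length, scaling, pseudocounts and each library left out.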

Additional observations from a re-analysis of the deposited data

How the results depend on the processing

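The crystallin share moved from 70.8% to 71.4% for protein-coding genes only, 71.7% without mitochondrial genes and Lars2, and 47.3% for FPKM times exon length. It stayed within its SD for entries of at least 1 FPKM (71.1%) and without 1 library (70.5% to 71.1%). The number of genes holding 50% of the sum went from 6 to 297 without crystallins and 23 with exon length, and the number holding 90% from 887 to 4403 and 2946. Without 1 library these were 6 and 861 to 928. Detected genes numbered 5262 at 5 FPKM, against 9973 at 1 FPKM, and 10078 to 10233 without 1 library. The median CV of 7.47% became 4.54% at a mean of at least 10 FPKM, 17.7% without a filter and 5.47% to 6.44% without 1 library. The lowest correlation of 0.991 became 0.989 and 0.993 with pseudocounts of 0.1 and 1, and 0.992 without a filter. Leaving crystallins out of the scaling, or scaling by the median of ratios, left 18 and 17 of 29 neighbour pairs separate, against 19. The causes were not tested, except that fewer genes enter a filtered count. No paired analysis was possible because only 1 genotype is described. Depth limits genes below about 1 FPKM, where few reads stand behind a value.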

Other observations

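A few genes known from other tissues were abundant or present in all 3 libraries. They were chosen after their values were seen. Pgam2, the phosphoglycerate mutase gene known from muscle, measured 389, 410 and 376 FPKM, above the general form Pgam1 (53.2 ± 1.74). The muscle actin gene Acta1 measured 4.61, 21.7 and 3.49 FPKM in the same libraries. Avp and Oxt, which encode the hormones vasopressin and oxytocin of hypothalamic neurons, measured 16.8, 28.7 and 25.6 FPKM and 4.90, 6.12 and 8.77 FPKM. The neuronal gene Snap25 was at most 0.0599 FPKM. Gfap, an astrocyte filament gene, measured 5.08, 4.08 and 3.45 FPKM.

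Of the 17 noncoding RNA genes of the list found in the table, 13 were detected, led by Malat1 (273 ± 20.7 FPKM), H19 (193 ± 6.35) and Snhg12 (116 ± 6.93). Entries labelled lincRNA held 1.52% ± 0.107 of FPKM without crystallins, and Yam1 alone 0.791% ± 0.101.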
